A study of Saccharomyces cerevisiae with 6 samples.

Results

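The genes described here are those of peroxisome biogenesis and fatty acid beta-oxidation in Saccharomyces cerevisiae, chosen by name from the probe annotation. They comprise every gene whose symbol is PEX followed by a number, and 15 further genes for the enzymes, transporters and regulators of beta-oxidation. The rule found 42 of the 5560 named genes on the array, each with 1 probe, namely 27 PEX genes, 10 enzymes, 3 transporters and 2 regulators.

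The study grew wild-type cells of strain S288c, the reference laboratory strain, and compared pairs of poly(A) RNA samples on 6 arrays with a channel for each sample. In 2 arrays, cells in MDN with rapamycin (Cy5) were set against cells in MDN without it (Cy3), and 2 arrays made the same comparison in YPD, a rich medium with glucose. A further array set MDN (Cy5) against YPD (Cy3) and another set MDN (Cy5) against SCD (Cy3), both without rapamycin. The labels give MDN and SCD only as abbreviations, and they give no rapamycin dose, no treatment time and no statement that arrays came from separate cultures. Rapamycin acts through the protein Fpr1 to block TOR, a kinase that ties growth to nutrient supply.

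In yeast the peroxisome is the only site of fatty acid beta-oxidation. Its matrix proteins are made in the cytosol and carried in by the receptors Pex5 and Pex7, which dock at the membrane, release their cargo and are returned to the cytosol by a ubiquitin-dependent export step. Genes for the enzymes and for several peroxins are repressed by glucose and induced by oleate, the latter through the paired transcription factors Oaf1 and Pip2 together with Adr1.

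Values are log2 ratios as deposited, read as Cy5 over Cy3, so that a positive value means higher with rapamycin or higher in MDN. This direction is likely rather than stated, and every sign given would flip if the authors had divided Cy3 by Cy5. No dye swap was made, so a dye effect of a probe stays in each value. Between 5834 and 6121 of 6210 probes had a value on each array, array medians lay between -0.09 and 0.07, and across 5488 genes and unnamed probes the MDN arrays correlated at r = 0.967 and the YPD arrays at r = 0.954, points that share an array. Errors after ± are standard errors from a limma fit with n = 2 arrays per medium, p-values are limma's with Benjamini-Hochberg adjustment over all 5488 features tested, and "rose" or "fell" is used below an adjusted p of 0.05. These p-values measure only the spread between arrays, which may be technical.

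With rapamycin, peroxisomal genes were on balance higher in both media. Of the 36 members with a value on all 4 rapamycin arrays, 17 rose and 2 fell in MDN, or 47.2% and 5.56%, where 30.8% and 23.3% of all features were called in those directions. In YPD 20 rose and 4 fell, or 55.6% and 11.1%, beside 34.3% and 32.0% of all features. The median of the 42 members was 0.32 and 0.39 on the MDN arrays and 0.37 and 0.37 on the YPD arrays, with every member counted that had a value there, whereas the median of all features was 0.04, 0.07, 0.01 and 0.00. A rise in both media was found for 15 of the 36 members (41.7%, against 22.3% of all features). These were PEX21, PEX13, PEX14, PEX10, PEX15, PEX11, PEX28, PEX34, PEX35, FAA2, ECI1, TES1, CAT2, ANT1 and PIP2. A fall in both media was found for PEX31 alone (2.78%, against 17.9% of all features), and no member was called in opposite directions. The changes were modest. At least 2-fold rises were seen for 3 members in MDN (8.33%, against 5.25% of all features) and 4 in YPD (11.1%, against 10.9%). With only 1 MDN array the fit called few members in MDN, 2 of 37 without MDN array 1 (PEX28 and PIP2) and 2 of 38 without MDN array 2 (PIP2 and PXA2). All features were likewise called far less often in MDN in these fits, so the loss was not particular to the members. The MDN calls of PEX34 and CAT2 were also lost without either YPD array. At equal array scale PEX5, PEX18, PEX4, PEX29 and PEX30 were also called higher in MDN. There 22 members rose in MDN (61.1%, against 35% of all features). Of the 24 YPD calls, 14 were kept without YPD array 1 and 14 without YPD array 2. The losses in both cases were PEX18, PEX8, PEX10, PEX4, PEX28, PEX30, PEX34, POT1 and OAF1, joined by PXA1 without YPD array 1 and by TES1 without YPD array 2. Without either MDN array, 18 YPD calls were kept, and PEX18, PEX30, PEX34, TES1, PXA1 and OAF1 were lost.

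**Figure D1:**
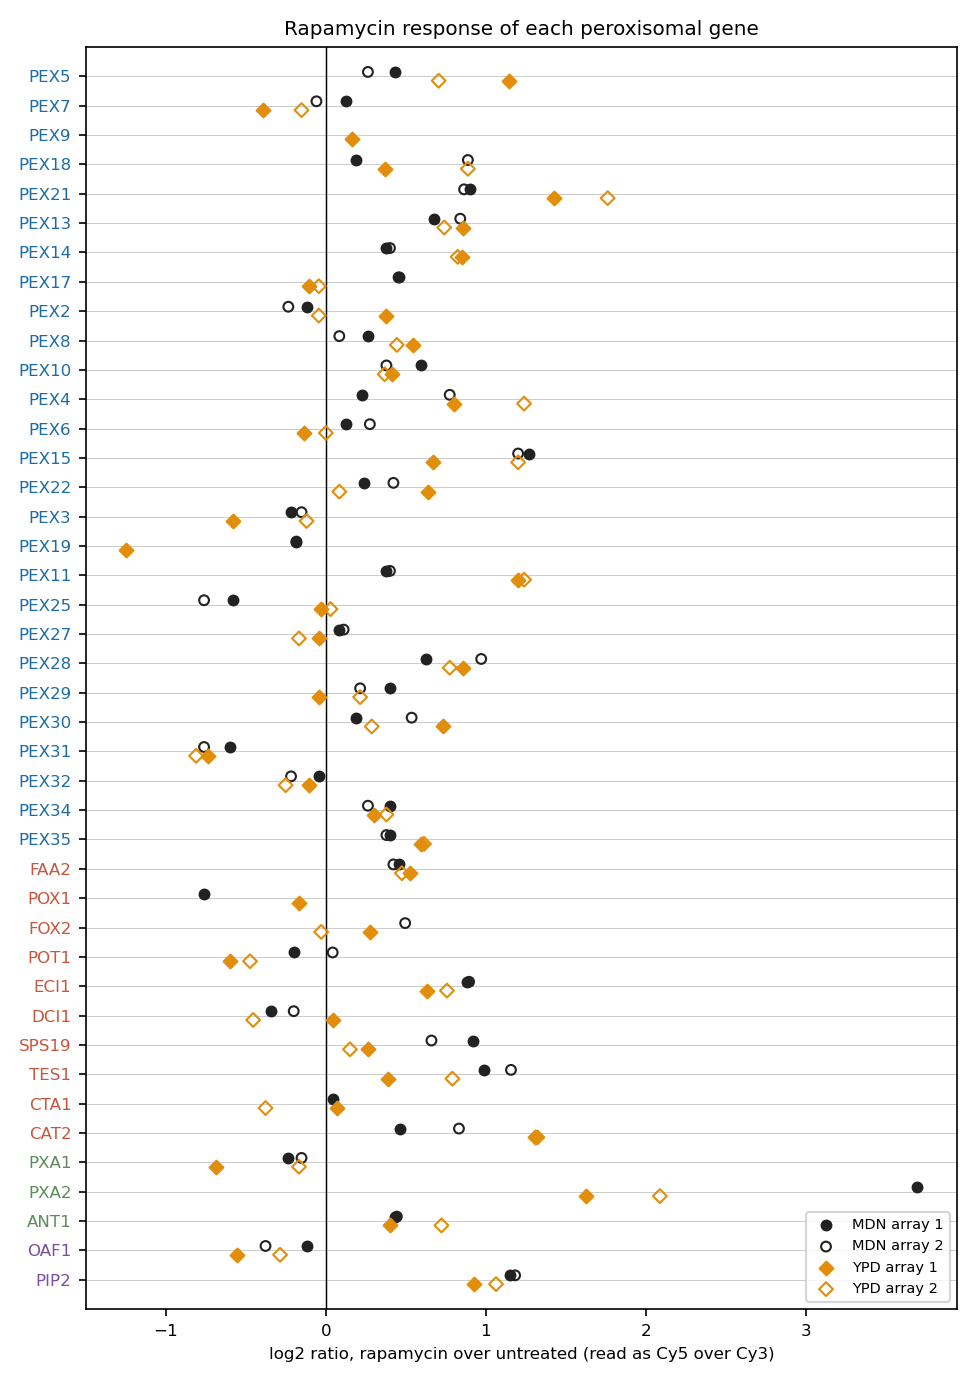
Log2 ratio of rapamycin-treated over untreated cells (horizontal axis) for each of the 42 genes (vertical axis, name colours: blue PEX genes, red enzymes, green transporters, purple regulators), with circles for the MDN arrays and diamonds for the YPD arrays, filled for array 1 and open for array 2. Most points lie right of 0, PXA2 lies farthest right at 3.70 on its only MDN array, and PEX31 lies left of 0 on all 4 arrays.

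Among the import receptors and coreceptors PEX21 stood highest in both media. PEX21, which encodes a coreceptor of Pex7, read 0.90 and 0.86 on the MDN arrays and 1.43 and 1.76 on the YPD arrays. It rose by 0.88 ± 0.11 in MDN (1.84-fold, adjusted p = 0.00242) and by 1.59 ± 0.11 in YPD (3.02-fold, adjusted p = 0.000233), and both YPD values lay above both MDN values. Its paralog PEX18 read 0.19 and 0.89 in MDN and 0.37 and 0.89 in YPD, a wide spread between arrays of a medium. PEX18 was at 0.54 ± 0.21 in MDN (adjusted p = 0.0819) and rose in YPD by 0.63 ± 0.21 (adjusted p = 0.0460), a call lost under equal array scale (adjusted p = 0.0761), with genes missing an array (0.0560), with floored ratios (0.0505) and without any 1 of the 4 arrays. PEX5, the receptor for carboxy-terminal targeting signals, read 0.43 and 0.26 in MDN and 1.14 and 0.70 in YPD. It rose in YPD by 0.92 ± 0.13 (1.90-fold, adjusted p = 0.00258) and was at 0.35 ± 0.13 in MDN (adjusted p = 0.0737). At equal array scale its MDN value passed the threshold (adjusted p = 0.0272). PEX7, the receptor for amino-terminal signals that the Pex18 and Pex21 coreceptors serve, read 0.12 and -0.06 in MDN and -0.40 and -0.15 in YPD. It was called in neither medium, at 0.03 ± 0.10 in MDN and -0.27 ± 0.10 in YPD (adjusted p = 0.804 and 0.0634). PEX9, a conditional relative of Pex5, had a rapamycin value on YPD array 1 only (0.16) and could not be tested.

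The 3 docking complex genes all rose in MDN (100%, against 30.8% of all features), and each lost that call without either MDN array. In YPD 2 of them rose (66.7%, against 34.3% of all features). PEX13 read 0.68 and 0.84 in MDN and 0.86 and 0.74 in YPD, overlapping between media, with means of 0.76 ± 0.09 (adjusted p = 0.00212) and 0.80 ± 0.09 (adjusted p = 0.00113). PEX14 read 0.38 and 0.40 in MDN and 0.85 and 0.82 in YPD, so the YPD pair lay apart and higher. PEX17 showed the reverse order, at 0.45 on both MDN arrays and at -0.10 and -0.04 in YPD. It rose by 0.45 ± 0.08 in MDN (adjusted p = 0.00692) and was at -0.07 ± 0.08 in YPD (adjusted p = 0.430).

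Downstream of docking, the members varied. PEX10, a RING ubiquitin ligase subunit, rose in both media, with 0.59 and 0.38 in MDN and 0.41 and 0.37 in YPD. PEX2, another RING subunit, was at -0.12 and -0.23 in MDN and 0.38 and -0.04 in YPD and was called in neither. PEX8, an intraperoxisomal protein that links docking and RING complexes, rose in YPD by 0.49 ± 0.09 (adjusted p = 0.00601) and was at 0.17 ± 0.09 in MDN. The receptor export machinery contained the peroxin gene with the highest MDN mean. PEX15, the membrane anchor of the export ATPase, read 1.27 and 1.20 in MDN and 0.67 and 1.20 in YPD, and rose by 1.24 ± 0.14 (2.35-fold, adjusted p = 0.00208) and 0.94 ± 0.14 (adjusted p = 0.00339). PEX6, which encodes a subunit of that ATPase, stayed at 0.12 and 0.28 in MDN and -0.14 and 0.00 in YPD and was not called. PEX4, the ubiquitin-conjugating enzyme of the export step, read 0.23 and 0.77 in MDN and 0.80 and 1.24 in YPD, and rose in YPD by 1.02 ± 0.17 (2.03-fold, adjusted p = 0.00510). Its membrane anchor PEX22 read 0.24 and 0.42 in MDN and 0.64 and 0.08 in YPD and was called in neither medium.

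Genes for the insertion of peroxisomal membrane proteins read below 0 on every rapamycin array that measured them. PEX3, the membrane docking factor, read -0.22 and -0.15 in MDN and -0.58 and -0.12 in YPD and was called in neither. PEX19, the chaperone that binds Pex3, read -0.18 on both MDN arrays and -1.25 on YPD array 1, and lacked a value on YPD array 2. A fit that also took genes missing an array gave PEX19 an adjusted p of 0.00261 in YPD, resting on a single array that is assumed to vary like the MDN arrays.

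Among the 10 peroxins of organelle size and number, 4 rose and 2 fell in MDN (40% and 20%, against 30.8% and 23.3% of all features). In YPD 5 rose and 1 fell (50% and 10%, against 34.3% and 32.0%). PEX11, which elongates the membrane before division, read 0.38 and 0.40 in MDN and 1.20 and 1.24 in YPD. Its rise was 0.39 ± 0.08 in MDN (1.31-fold, adjusted p = 0.0107) and 1.22 ± 0.08 in YPD (2.33-fold, adjusted p = 0.000190). The Pex11 relative PEX25 fell in MDN, with -0.58 and -0.76, and stood at -0.03 and 0.03 in YPD. PEX27, the paralog of PEX25, was near 0 on all 4 arrays, from -0.17 to 0.11. PEX28 rose in both media (0.62 and 0.97 in MDN, 0.86 and 0.77 in YPD), while the related PEX29 read between -0.04 and 0.40 and was called in neither. At equal array scale the MDN value of PEX29 passed the threshold (adjusted p = 0.0279). PEX31 read -0.60 and -0.76 in MDN and -0.74 and -0.81 in YPD, with a fall of 0.68 ± 0.09 and 0.77 ± 0.09 (adjusted p = 0.00273 and 0.00114). Its paralog PEX30 was instead above 0 on all 4 arrays and rose in YPD by 0.51 ± 0.15 (adjusted p = 0.0298). PEX32, of the same family, was at -0.13 ± 0.09 and -0.18 ± 0.09 and was not called. PEX34 and PEX35, which affect peroxisome number, rose in both media, PEX34 by 0.33 ± 0.08 and 0.34 ± 0.08 and PEX35 by 0.39 ± 0.08 and 0.60 ± 0.08. PEX34 lost its MDN and its YPD call without any 1 of the 4 arrays.

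The core enzymes of the beta-oxidation spiral were incompletely measured. Acyl-CoA oxidase POX1, the entry step, gave -0.76 on MDN array 1, -0.17 on YPD array 1 and nothing on the other 4 arrays of the series. The multifunctional hydratase and dehydrogenase FOX2 gave 0.50 on MDN array 2 and 0.28 and -0.03 in YPD. The thiolase POT1, which carries out the closing cleavage, read -0.20 and 0.04 in MDN and fell in YPD by 0.54 ± 0.10 (-0.60 and -0.47, adjusted p = 0.00625). POX1 and FOX2 were not tested in the main fit, which took genes with all 4 arrays, so a rise could not be called for them. POT1, the only core gene with a value on all 4 arrays, rose in neither medium. CTA1, the peroxisomal catalase that removes the hydrogen peroxide of the oxidase step, read 0.04 on its only MDN array and 0.07 and -0.38 in YPD.

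The auxiliary enzymes stood higher. TES1, an acyl-CoA thioesterase, read 0.99 and 1.16 in MDN and 0.39 and 0.79 in YPD, a rise of 1.07 ± 0.12 (2.10-fold, adjusted p = 0.00210) and of 0.59 ± 0.12 (adjusted p = 0.0103). ECI1, the enoyl-CoA isomerase for unsaturated fatty acids, read 0.88 and 0.90 in MDN and 0.63 and 0.76 in YPD, a rise of 0.89 ± 0.08 (1.85-fold) and 0.69 ± 0.08 (1.62-fold). Its paralog DCI1 was below 0 on 3 of the 4 arrays and called in neither medium, and ECI1 exceeded DCI1 by 0.59 to 1.22 on every rapamycin array. SPS19, the dienoyl-CoA reductase, rose in MDN (0.92 and 0.66, mean 0.79 ± 0.10) and was at 0.26 and 0.15 in YPD (mean 0.21 ± 0.10, adjusted p = 0.120). FAA2, which activates medium-chain fatty acids inside the organelle, rose by 0.44 ± 0.08 in MDN and 0.50 ± 0.08 in YPD. Its gene model overlaps that of BUD25 by 160 bases, and whether the FAA2 probe also reads BUD25 was not tested. CAT2, the carnitine acetyltransferase that passes acetyl units on, read 0.46 and 0.83 in MDN and 1.30 and 1.32 in YPD, with a rise of 0.65 ± 0.11 and 1.31 ± 0.11 (2.48-fold, adjusted p = 0.000486).

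The half-transporters of the long-chain acyl-CoA transporter, Pxa1 and Pxa2, were far apart. PXA2 read 3.70 on MDN array 1 and 1.63 and 2.09 in YPD, and lacked a value on MDN array 2. It was the highest member on each array that measured it with rapamycin. A fit that also took genes missing an array gave 1.86 ± 0.15 in YPD (3.62-fold, adjusted p = 0.00168) and, from the single MDN array, which is assumed to vary like the YPD arrays, 3.70 ± 0.21 (adjusted p = 0.00134). PXA1 read -0.23 and -0.15 in MDN and -0.69 and -0.17 in YPD. It fell in YPD by 0.43 ± 0.14 (adjusted p = 0.0436), and this call was lost when genes missing an array were added (0.0518) and without either MDN array or YPD array 1. PXA2 exceeded PXA1 by 3.93 on the MDN array and by 2.32 and 2.26 on the YPD arrays, and their products are known to work as a heterodimer. This difference was not tested. ANT1, the peroxisomal adenine nucleotide carrier, rose by 0.44 ± 0.10 in MDN and 0.56 ± 0.10 in YPD.

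The transcription factor partners showed a like separation. PIP2 read 1.15 and 1.18 in MDN and 0.93 and 1.06 in YPD, with rises of 1.17 ± 0.08 (2.24-fold, adjusted p = 0.000477) and 0.99 ± 0.08 (1.99-fold, adjusted p = 0.000440). PIP2 was the only one of the 36 tested members that was called in both media whichever rapamycin array was left out. OAF1, which binds oleate and pairs with Pip2, read -0.12 and -0.38 in MDN and -0.56 and -0.29 in YPD, and fell in YPD by 0.42 ± 0.11 (adjusted p = 0.0234), a call lost without any 1 of the 4 arrays. PIP2 exceeded OAF1 by 1.27 to 1.56 on the rapamycin arrays, against 0.11 and 0.16 on the medium arrays.

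**Figure D2:**
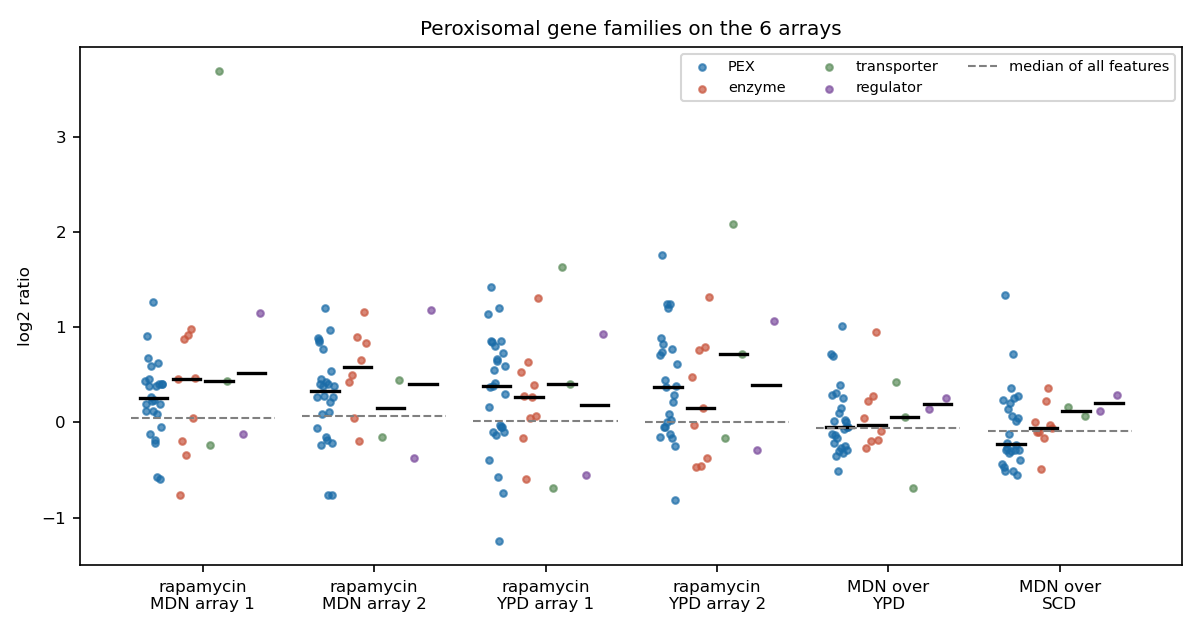
Log2 ratios (vertical axis) of PEX genes, enzymes, transporters and regulators on each of the 6 arrays (horizontal axis), a point per gene, with black bars for family medians and a dashed line for the median of all features. PEX and enzyme medians lie above the dashed line on the 4 rapamycin arrays. The order of PEX genes and enzymes turns over between the MDN and YPD arrays, over the genes that each array measured. Over genes with all 4 rapamycin arrays (not drawn), the PEX median was the higher on YPD array 1 only (0.41 against 0.39).

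Set against each other as families, PEX genes and enzymes overlapped throughout. In MDN the PEX median was 0.25 and 0.33 on the arrays and the enzyme median 0.45 and 0.58. In YPD the PEX median was 0.38 and 0.37 and the enzyme median 0.27 and 0.15, so the order was the opposite. Over genes with all 4 arrays the enzymes had the higher median in both media, 0.65 against 0.35 in MDN and 0.50 against 0.39 in YPD. Those are medians of 2-array means, without POX1, FOX2, CTA1, PEX9 and PEX19. Array by array over the same genes, the PEX and enzyme medians were 0.41 and 0.39 on YPD array 1 and 0.37 and 0.48 on YPD array 2, so the arrays gave opposite orders in YPD. By counts, 10 of 25 PEX genes rose and 2 fell in MDN (40% and 8%), beside 5 and 0 of the 7 enzymes tested (71.4% and 0%), where 30.8% and 23.3% of all features did. In YPD 14 PEX genes rose and 1 fell (56% and 4%), beside 4 and 1 enzymes (57.1% and 14.3%), where 34.3% and 32.0% of all features did. No test was made of these families as groups.

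Whether the response differed between media was tested directly. The difference MDN minus YPD was called for 7 of 36 members (19.4%), below the 29.5% of all features. PEX11 (-0.83 ± 0.11, adjusted p = 0.00873), PEX21 (-0.71 ± 0.15, adjusted p = 0.0264), PEX25 (-0.67 ± 0.12, adjusted p = 0.0196), CAT2 (-0.66 ± 0.16, adjusted p = 0.0345) and PEX14 (-0.45 ± 0.11, adjusted p = 0.0358) were lower in MDN. SPS19 (0.58 ± 0.14, adjusted p = 0.0350) and PEX17 (0.53 ± 0.11, adjusted p = 0.0249) were higher in MDN. For each of these 7 genes the MDN pair of values lay wholly to one side of the YPD pair. This follows largely from their selection by a test on the same values, so it adds no support. The calls of PEX21, PEX14 and CAT2 were lost when arrays were brought to equal scale (adjusted p = 0.136, 0.141 and 0.183). At that scale TES1 (0.73, adjusted p = 0.0352) and PIP2 (0.49, adjusted p = 0.0434) were called higher in MDN, so the split of 2 higher and 5 lower became 4 higher and 2 lower. With any 1 array left out the fit called no feature for this difference.

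**Figure D3:**
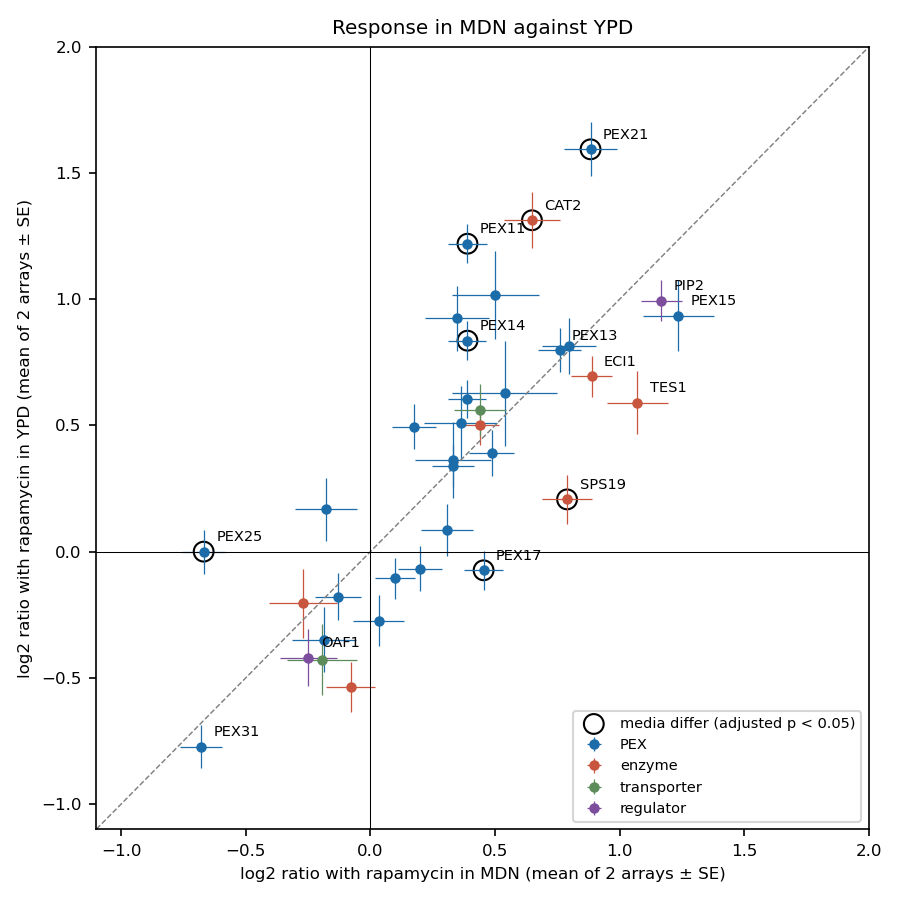
Mean log2 ratio with rapamycin in MDN (horizontal axis) against YPD (vertical axis) for the 36 genes with all 4 arrays, with standard errors, colours by family and a dashed line of equality. Black rings mark the 7 genes whose difference between media passed the test, with PEX21, CAT2, PEX11, PEX14 and PEX25 above the line and SPS19 and PEX17 below it.

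Without rapamycin, most of these genes were close to 0 in the comparison of media. Of 39 members measured, 33 lay within 0.5 of 0 for MDN over YPD, and 34 of 39 for MDN over SCD. The share of all features within 0.5 of 0 was not computed, so these counts are not read as a trait of peroxisomal genes. PEX11 passed 2-fold for MDN over YPD at 1.01 (2.56% of members, against 3.93% of all features), and PEX21 did so for MDN over SCD at 1.33 (2.56%, against 2.39%). No member was 2-fold lower on either array, where 1.96% and 0.983% of all features were. These are single arrays with no replicate and no test.

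PEX11, PEX21 and TES1 were the members above 0.3 on both arrays. PEX11 read 1.01 against YPD and 0.71 against SCD, PEX21 0.70 and 1.33, and TES1 0.95 and 0.36. PEX5 was at 0.71 against YPD but -0.43 against SCD, and PEX2 and PEX22 also had opposite signs (0.31 and -0.27, 0.39 and -0.30). These were the members with opposite signs and both values beyond 0.25 from 0. Others had opposite signs with a value nearer 0, such as ECI1 (0.23 and -0.49). ANT1 had the lowest value against YPD at -0.69 and read 0.07 against SCD, and PEX30 had the lowest against SCD at -0.56 and read 0.03 against YPD. Several members were below 0 on both, among them PEX4 (-0.51 and -0.32), PEX13 (-0.22 and -0.51) and PEX19 (-0.27 and -0.51). The family medians were -0.04 for PEX genes and -0.02 for enzymes against YPD, and -0.23 and -0.06 against SCD, beside -0.06 and -0.09 for all features. Core enzymes read near 0 where measured, with FOX2 at -0.27 and -0.10, POT1 at -0.10 against SCD, and CTA1 at -0.18 and -0.03. OAF1 (0.14 and 0.12) and PIP2 (0.25 and 0.29) were slightly above 0.

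**Figure D4:**
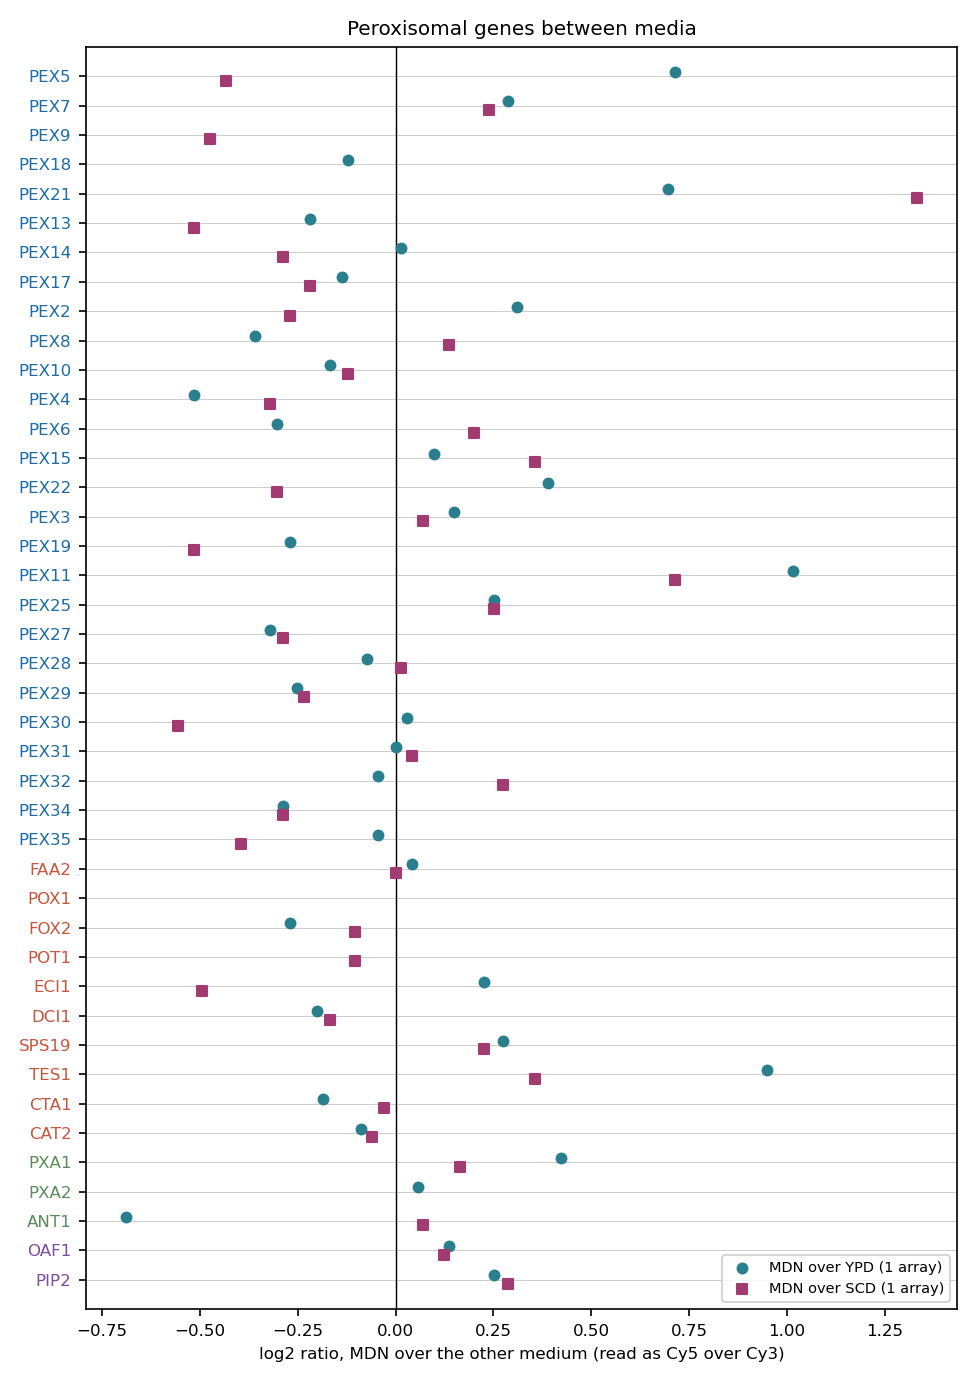
Log2 ratio of MDN over YPD (circles) and MDN over SCD (squares) on the horizontal axis for each member on the vertical axis, 1 array each. Most genes lie within 0.5 of 0, with PEX11, PEX21 and TES1 to the right and PEX5 on opposite sides of 0.

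Genes linked to the pathway but outside the naming rule were followed in the same fit, 32 in all, of which 30 had the 4 arrays. In MDN 14 rose and 7 fell (46.7% and 23.3%, against 30.8% and 23.3% of all features). In YPD 15 rose and 8 fell (50% and 26.7%, against 34.3% and 32.0%). Of these 21 MDN calls, 3 were kept without MDN array 1 and 6 without MDN array 2, and of the 23 YPD calls, 15 without YPD array 1 and 14 without YPD array 2. In each of these fits fewer of all features were called as well. The probe annotated as ADR1, a regulator that acts beside Oaf1 and Pip2, was well below 0 on every rapamycin array. It read -3.47 and -4.06 in MDN and -3.47 and -3.18 in YPD, with a mean of -3.77 ± 0.16 and -3.33 ± 0.16 (adjusted p = 0.000113 and 0.0001). In all, 85 of the 5488 features were as low as this in both media, this probe included. Whether this probe reports ADR1 was not tested, since no probe sequences were at hand, a limit that holds for every gene here. The value is not read as a change in ADR1, though it is counted above among the related genes that fell in both media. OAF3, a repressor in the oleate response, rose by 0.36 ± 0.10 and 0.74 ± 0.10. The glucose-signalling kinase SNF1 fell by 0.36 ± 0.08 and 0.52 ± 0.08, and the glucose repressor MIG1 was called in neither medium.

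Of 6 fatty acid entry and carnitine genes tested, 1 rose and 0 fell in MDN (16.7% and 0%), and 2 rose and 1 fell in YPD (33.3% and 16.7%), beside the shares of all features given above. FAT1, ACB1 and YAT1 were called in neither medium. YAT2, a carnitine acetyltransferase outside the peroxisome, read 3.17 on MDN array 1 and 3.32 on YPD array 1 and had no other rapamycin value. The mitochondrial carnitine carrier CRC1 rose by 0.59 ± 0.12 in MDN and 1.33 ± 0.12 in YPD, with a difference of -0.74 ± 0.17 (adjusted p = 0.0297) whose call was lost at equal array scale (adjusted p = 0.0655). The acyl-CoA synthetase FAA1 rose in YPD by 1.11 ± 0.09, and FAA4, another synthetase, fell there by 1.45 ± 0.08, while neither was called in MDN (0.26 ± 0.09 and -0.23 ± 0.08, adjusted p = 0.0612 for both). At equal array scale the MDN values of FAA1, FAA4 and FAT1 passed the threshold (adjusted p = 0.0363, 0.04 and 0.023), the last pair below 0.

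Of 12 other enzymes of or linked to the peroxisome, 7 rose and 4 fell in MDN (58.3% and 33.3%, against 30.8% and 23.3% of all features). In YPD 9 rose and 3 fell (75% and 25%, against 34.3% and 32.0%). MLS1, malate synthase, rose by 3.25 ± 0.23 in MDN and 2.24 ± 0.23 in YPD, and CIT2, citrate synthase, by 2.13 ± 0.11 and 3.16 ± 0.11. MDH3, the peroxisomal malate dehydrogenase, rose by 0.59 ± 0.08 and 0.33 ± 0.08. The nicotinamidase PNC1 rose by 0.77 ± 0.11 and 1.88 ± 0.11. PCD1, NPY1 and LPX1 fell in both media, PCD1 by 0.85 ± 0.24 in MDN and 0.91 ± 0.24 in YPD. PCD1 varied widely between arrays, at -0.56 and -1.15 in MDN and -1.32 and -0.49 in YPD. The YPD calls of PCD1, NPY1, LPX1 and MDH3 were lost whichever rapamycin array was left out, as was the MDN call of PCD1. The MDN calls of NPY1, LPX1 and MDH3 were lost without either MDN array. GPD1 fell by 0.39 ± 0.08 in MDN and rose by 0.63 ± 0.08 in YPD. CTT1, the cytosolic catalase, rose by 1.58 ± 0.11 and 1.55 ± 0.11, where CTA1 was between -0.38 and 0.07. In fission and inheritance, the retention factor INP1 rose by 0.85 ± 0.09 in MDN and 0.41 ± 0.09 in YPD. MDV1, an adaptor of the dynamin Dnm1, rose by 0.81 ± 0.08 in MDN and was at 0.22 ± 0.08 in YPD, and DNM1 rose by 0.58 ± 0.12 and 0.54 ± 0.12. INP2, the receptor for transport into the bud, was at 0.07 ± 0.16 in MDN and fell by 0.56 ± 0.16 in YPD. ATG36, the receptor for autophagy of peroxisomes, rose by 1.04 ± 0.08 in MDN (2.05-fold) and 0.84 ± 0.08 in YPD. Its adaptor ATG11 was at -0.25 ± 0.10 in MDN and fell by 0.62 ± 0.10 in YPD.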

How the data were processed

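The authors deposited log2 values for 6210 probes on 6 arrays. Their scale was found from the values, since 100% are base-2 logs of multiples of 0.01 (tolerance 0.0001 in the ratio). The sources used here name no scanner, background correction, normalization or spot filter, and intensities were not used.

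Probes were named from the platform annotation: 5595 had 1 symbol, none had several and 615 were unnamed here. Genes with several probes (34) were averaged. All 42 members matched the RefSeq gene table by gene number and symbol.

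A limma fit (version 3.58.1, R 4.3.3) took the 4 rapamycin arrays at once, with a mean per medium (2 residual degrees of freedom, 3 from the prior, typical standard error 0.0964). Tests were two-sided on the 5488 features with all 4 arrays, 36 of them members, and were checked on simulated data. The number of arrays limits the precision. Medium arrays were not tested. Named are all members. Of the related genes, up to 4 per subgroup with the largest mean in either medium were to be named. More than these are named among the fatty acid entry and carnitine genes and among the other enzymes.

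Alternatives were median centring, equal array scale, genes missing an array, ratios floored at 0.05, a replicate block and each array left out. Members, lists and tests were chosen with earlier results of these data known. Promoter and protein sequences were not analysed here. Figures used matplotlib 3.10.9 in Python 3.11.15.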

Additional observations from a re-analysis of the deposited data

Results flagged for a closer look

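The rapamycin response of 7 members differed between media by limma's test of the difference MDN minus YPD, each with 2 arrays per medium. PEX11 differed by -0.83, PEX21 by -0.71, PEX25 by -0.67, CAT2 by -0.66 and PEX14 by -0.45, with the lower value in MDN. SPS19 differed by 0.58 and PEX17 by 0.53, with the higher value in MDN. Adjusted p lay between 0.00873 for PEX11 and 0.0358 for PEX14. The members' share called, 19.4%, was below that of all features, 29.5%.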

How the results depend on the processing

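With 1 array left out in turn, calls in MDN ranged from 517 to 2617 of all features and from 2 to 17 of the members, against 2968 and 19, calls in YPD from 2394 to 2932 and from 14 to 19, against 3638 and 24, and calls for the difference were 0 throughout (0 of the members), against 1620 and 7. A medium with 1 array is then assumed to vary like the other. With the array number as a replicate block, 4 members were called for the difference instead of 7, and 21 in MDN and 23 in YPD. The difference was lost for PEX14, PEX17 and CAT2 (adjusted p = 0.077, 0.055 and 0.0502). The numbers are not stated to pair arrays, and deviations of same-numbered arrays correlated at r = -0.103. A crossed replicate block, added after seeing the data, called 21, 24 and 5 members, the difference being lost for PEX14 and SPS19 (adjusted p = 0.0627 and 0.0597). The excess of the PEX median over the enzyme median in MDN moved from -0.30 to -0.36 at equal array scale. Median centring, equal scale, genes missing an array and floored ratios left the other total counts of calls within 1.5 times. By direction, the members' difference calls went from 2 higher and 5 lower to 4 and 2 at equal scale and to 4 and 5 with genes missing an array. No member called in the main analysis turned its sign under any of these alternatives. The causes of these changes were not tested, beyond the loss of arrays itself. Background correction and filters on dim probes could not be varied without intensities.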
